A study of Mus musculus with 4 samples.

Results

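The unfolded protein response and the chaperones of the endoplasmic reticulum (ER) were examined through 33 genes, chosen by symbol as known sensors, folding factors, degradation factors and translocon subunits of this pathway. The choice was made with earlier results of these data known, so counts set beside all genes describe this list only. All 33 were found among the 22700 rows per library, and all 33 reached the level minimum of 20 normalised reads in at least 1 library, as did 13642 rows in all. RNA came from marrow of 12-week-old male mice after 7 to 8 days of culture. The control mice were db/+, labelled BKS.Cg-m+/+leprdb+/J, and the type 2 diabetic mice db/db, labelled BKS.Cg-m+/+leprdb/J, which carry a mutation of the leptin receptor gene in both copies. Marrow of each genotype was grown either with 10 ng/ml M-CSF, the growth factor that drives macrophage differentiation, or with 20 ng/ml GM-CSF, under which marrow gives cells with macrophage and dendritic features. The 4 groups (M-CSF db/+, M-CSF db/db, GM-CSF db/+ and GM-CSF db/db) share the BKS background and hold 1 library each, so differences between single libraries have no replicate check. The sources used here do not say whether animals were pooled.

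Secreted and membrane proteins enter the ER through a translocon, are folded there by chaperones, receive disulfide bonds from isomerases, and are sent to the cytosol for degradation when folding fails. Unfolded protein in the ER activates the sensors PERK (gene Eif2ak3), IRE1-alpha (Ern1) and ATF6, which slow translation, splice the mRNA of Xbp1 and switch on chaperone and degradation genes. Macrophages and dendritic cells secrete and present large amounts of protein and lipid, and the IRE1-XBP1 branch is known to act in dendritic cells. Gene totals do not show Xbp1 splicing, cleavage of ATF6 or phosphorylation of PERK.

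Levels are normalised reads, that is reads per gene over the size factor of the library. Depth was between 25603390 and 28622695 reads per library. The targeted gene Lepr was at 6.7 (db/+) and 21.8 (db/db) normalised reads in M-CSF and 49.4 and 60.3 in GM-CSF, and since the db mutation changes splicing, the gene's total is no check of the labels. The labels call the cells macrophages, and all 14 macrophage markers were above 0 in each library, with Csf1r, the M-CSF receptor, at 120627 and 105159 in M-CSF and 33549.6 and 33103 in GM-CSF. Itgax, the CD11c integrin of GM-CSF cultures, was at 775 and 921 in M-CSF and 56042 and 56259 in GM-CSF. The M-CSF libraries stood apart in fibroblast and stromal markers: all 21 were above 0 in both, and their summed level was 54255 in db/+ and 154065 in db/db. The GM-CSF sums of 42999 and 44069 came mostly from fibronectin (Fn1), which macrophages also make. Without Fn1 the other 20 markers summed to 40395 and 113582 in M-CSF and to 1221 and 1303 in GM-CSF, where 2 (db/+) and 3 (db/db) were at 0. Rows at 0 numbered 2518 (db/+) and 3882 (db/db) in M-CSF against 6738 and 6648 in GM-CSF, and 526, 331, 114 and 96 of 1123 olfactory receptor genes were above 0. Between the GM-CSF libraries the squared deviation of genes with 200 to 1000 reads was 1.08 times that of counting read pairs, against 6.46 times between the M-CSF libraries. With read pairs as the unit, the GM-CSF libraries of opposite genotype thus agreed almost within sampling noise. Whether mates were counted singly is not stated, and with single reads as the unit the agreement would be less close. Whether the GM-CSF libraries came from separate cultures is not shown by these values. This limits both the genotype comparison in GM-CSF and the weight of the GM-CSF pair in the culture test. That test is therefore also given with either GM-CSF library left out.

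Several promoters of these genes carry a sequence through which the response is known to act. The ER stress element (ERSE), bound by ATF6 together with the factor NF-Y, reads CCAAT, then 9 bases of any kind, then CCACG, and the shorter ERSE-II reads ATTGG, 1 base of any kind and CCACG. Both were searched on both strands of RefSeq promoters (GRCm38.p6, 250 bases before to 50 after the annotated start), not one of the builds named for the expression files. Promoters were matched for 29 of the 33 genes, 3 of them under a newer symbol (Ero1a for Ero1l, Ero1b for Ero1lb, Selenok for Selk). Hyou1, Manf, Derl1 and Atf6 had no entry. An exact ERSE stood in 10 of the 29 (34.5%) and an ERSE-II in 2 others (6.90%), against 37 (0.137%) and 12 (0.0444%) of 27025 genes in the table. The parts CCACG and CCAAT, which the ERSE contains, stood in 25 (86.2%) and 22 (75.9%) of the 29, against 35.5% and 41.1% of genes. The core of the UPRE, bound by XBP1, with the letters TGACGTG, stood in 1 (Hspa5, against 2.22% of genes), and TGATGNAA, an ATF4 element, in 1 (Herpud1, against 4.51%), both strands searched. The study of several of these genes led to the definition of the element, so its presence is a description of the list. The elements are shown because they are shared by genes of different roles, with CCAAT and CCACG (or ATTGG and CCACG) in capitals, read on the strand of the element:
Hspa5: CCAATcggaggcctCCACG
Hsp90b1: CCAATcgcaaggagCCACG
Hsp90b1: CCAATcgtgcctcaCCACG
Dnajc3: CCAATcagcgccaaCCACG
Creld2: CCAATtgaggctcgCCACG
Calr: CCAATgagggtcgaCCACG
Canx: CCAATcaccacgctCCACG
Pdia6: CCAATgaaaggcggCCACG
Ero1lb: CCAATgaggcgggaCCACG
Syvn1: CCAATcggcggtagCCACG
Derl3: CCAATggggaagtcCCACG
Dnajb11: ATTGGcCCACG
Herpud1: ATTGGgCCACG

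The Hsp90b1 promoter held 2 such elements, and the other 9 ERSE promoters 1 each. In Hspa5 the ERSE lay 65 to 47 bases before the start, in Pdia6 98 to 80, and in Calr, on the opposite strand, 162 to 144. Whole promoters are printed for 3 abundant chaperones with the element and for Pdia4, which had the second highest culture fold of the 33 genes and no exact match in this window. The full element is in capitals, on the strand of the gene:
Hspa5, chr2:34771840-34772139 (+ strand): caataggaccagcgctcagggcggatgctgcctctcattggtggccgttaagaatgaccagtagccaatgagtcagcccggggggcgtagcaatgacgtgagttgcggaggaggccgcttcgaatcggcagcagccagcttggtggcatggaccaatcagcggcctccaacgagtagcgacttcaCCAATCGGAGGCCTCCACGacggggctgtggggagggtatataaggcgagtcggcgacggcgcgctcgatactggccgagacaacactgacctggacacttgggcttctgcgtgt
Hsp90b1, chr10:86705395-86705694 (- strand): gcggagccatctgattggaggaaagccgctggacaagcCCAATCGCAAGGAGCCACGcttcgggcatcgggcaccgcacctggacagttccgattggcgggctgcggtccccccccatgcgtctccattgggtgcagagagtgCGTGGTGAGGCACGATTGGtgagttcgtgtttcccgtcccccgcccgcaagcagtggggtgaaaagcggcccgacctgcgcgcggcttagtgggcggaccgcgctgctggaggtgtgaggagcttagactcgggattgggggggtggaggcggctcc
Calr, chr8:84846882-84847181 (- strand): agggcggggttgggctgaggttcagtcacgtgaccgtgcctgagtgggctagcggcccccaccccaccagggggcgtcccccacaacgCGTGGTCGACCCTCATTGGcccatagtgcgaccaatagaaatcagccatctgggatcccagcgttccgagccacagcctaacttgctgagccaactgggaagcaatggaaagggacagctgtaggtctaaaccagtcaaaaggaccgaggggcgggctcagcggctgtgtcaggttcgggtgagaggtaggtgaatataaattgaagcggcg
Pdia4, chr6:47813463-47813762 (- strand): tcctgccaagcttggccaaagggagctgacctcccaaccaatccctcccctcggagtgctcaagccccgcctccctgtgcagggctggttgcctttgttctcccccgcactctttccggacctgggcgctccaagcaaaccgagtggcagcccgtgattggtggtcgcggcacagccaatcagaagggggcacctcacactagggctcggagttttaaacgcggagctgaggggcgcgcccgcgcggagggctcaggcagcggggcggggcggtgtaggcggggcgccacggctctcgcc

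The main difference in these genes lay between the cultures. In GM-CSF, chaperones, disulfide isomerases, oxidases and most degradation factors were higher than in M-CSF in cells of either genotype, while none of the 3 sensor genes passed the test for a rise. Over all 33 genes the median log2 fold of GM-CSF over M-CSF was 1.11 in db/+ and 0.99 in db/db, on log2(normalised reads + 5), against 0.03 and 0.01 over all 13642 genes. At least 2-fold higher in GM-CSF were 20 of 33 in db/+ (12.0% of all genes kept) and 15 of 33 in db/db (11.3%). With libraries scaled to total reads these counts were 7 and 7. No member was 2-fold or more lower in either genotype (0 of 33, against 15.7% and 15.8% of all genes). At least 1.5-fold higher in both genotypes, in pairs that share no library, were 26 of 33, against 16.4% of all genes. In 30 of the 33 both GM-CSF libraries lay above both M-CSF libraries (41.6% of all genes), in 1 (Ern1) below (38.9%), and in Atf6 and Syvn1 the groups overlapped.

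**Figure D1:**
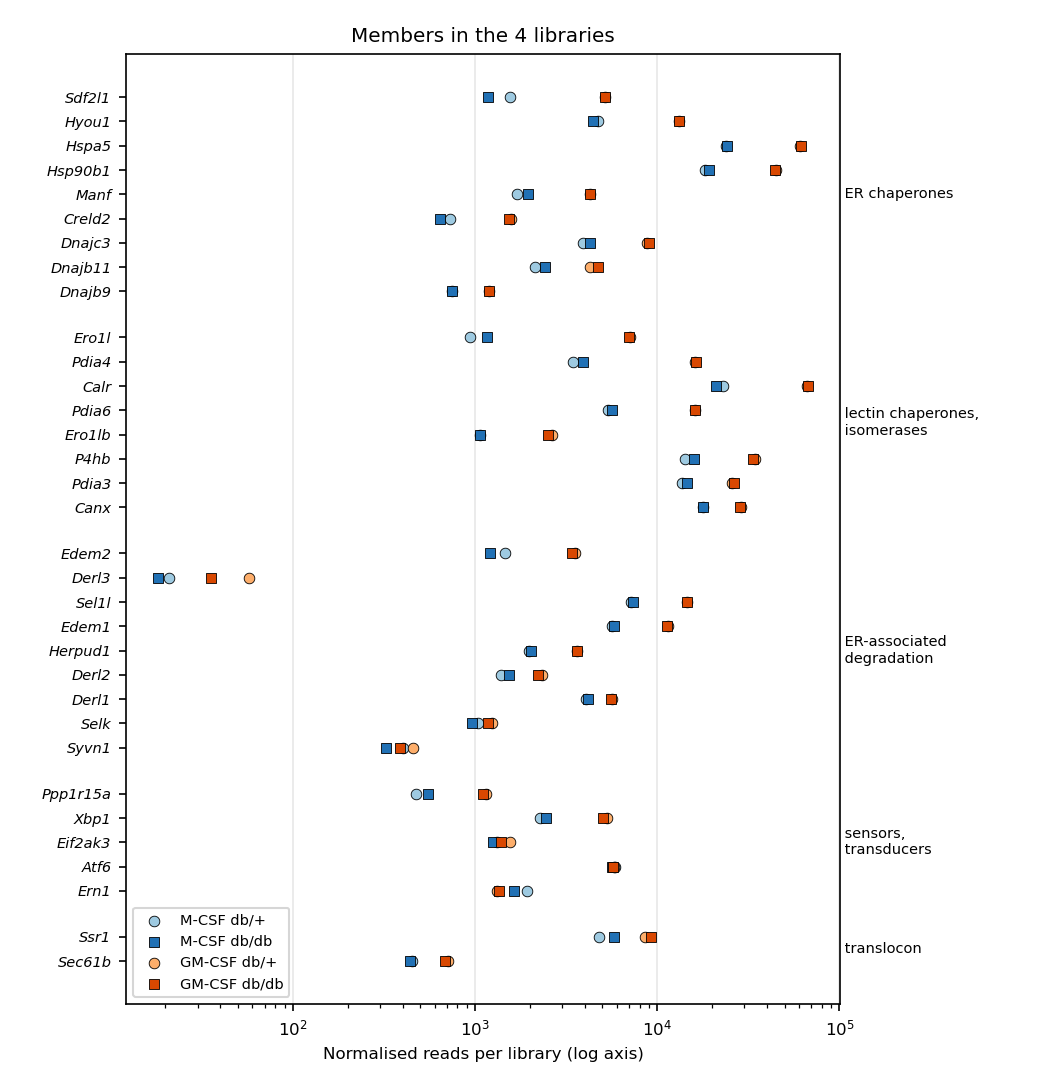
Normalised reads (log axis) of the 33 genes in each of the 4 libraries, grouped by role. Circles are db/+ and squares db/db, in blue for M-CSF and orange for GM-CSF. The GM-CSF points lie to the right of the M-CSF points in 30 of the 33 rows, and GM-CSF points of the opposite genotypes often cover each other.

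Culture type was tested with limma in a model of culture and genotype over all 4 libraries, with Benjamini-Hochberg adjusted p-values over all 13642 genes. In this test 29 of the 33 genes rose in GM-CSF (29.8% of all genes) and 1 fell (27.3%). Without GM-CSF db/+ or GM-CSF db/db 27 of the 33 passed (36.8% and 36.7% of all genes), without M-CSF db/+ 29 (51.5%) and without M-CSF db/db 28 (52.6%), in models of culture alone that assume the lone library varies like the pair. The deposited scaling sets the median gene near 0. When libraries were scaled to total reads instead, the median over all genes moved from 0.02 to -0.32 and that of the 33 genes from 1.03 to 0.74. The distance between these medians was 1.01 and 1.06, and 31 of the 33 lay above the median gene under either scaling. With total-read scaling 25 of the 33 rose and 2 fell, while 63.2% of all genes were called and 16.7% rose. Of all genes called, 26.4% were then higher in GM-CSF, against 52.2% with the deposited scaling. RNA of whole cultures cannot tell apart more RNA per cell and more cells of a type that holds more of it.

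Counted as a share of each library, the 33 genes took 0.727% of reads in M-CSF db/+ (95% Wilson interval 0.723 to 0.732) and 0.754% in M-CSF db/db (0.750 to 0.759). In GM-CSF they took 1.34% in db/+ (1.33 to 1.35) and 1.33% in db/db (1.32 to 1.33). The share in GM-CSF was 1.84 times that in M-CSF in db/+ and 1.76 times in db/db. The 6 members with the most reads (Hspa5, Calr, Hsp90b1, P4hb, Canx and Pdia3) held 0.454% and 0.469% of M-CSF reads and 0.857% and 0.846% of GM-CSF reads. Intervals cover counting error only, and may be too narrow even for that, since PCR reads are not independent molecules.

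**Figure D2:**
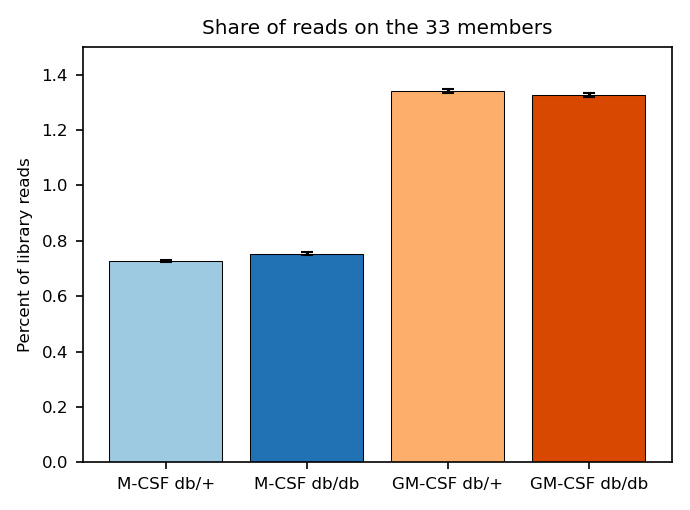
Percent of each library's reads on the 33 genes, 1 bar per library, with 95% Wilson intervals on read pairs. The GM-CSF bars (1.34% and 1.33%) stand well above the M-CSF bars (0.727% and 0.754%).

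All 9 chaperones and cochaperones of the ER lumen rose in GM-CSF, with limma log2 folds from 0.67 to 1.93. Hspa5, which encodes BiP, the HSP70 chaperone that also holds the sensors inactive, was at 23954 (db/+) and 24029 (db/db) normalised reads in M-CSF and 60864.5 and 61113 in GM-CSF (log2 fold 1.35, SE 0.11, limma adjusted p = 5.67e-08). Within each culture the genotypes differed by less than counting error, and the culture ratio was 2.54 (2.49 to 2.60) in db/+ and 2.54 (2.49 to 2.60) in db/db, with 95% exact intervals on read pairs. Hsp90b1, the gene of the HSP90 chaperone GRP94, which folds Toll-like receptors and integrins, was at 18243 and 19160.0 in M-CSF and 45118 and 44158 in GM-CSF, 2.47 and 2.30 times higher in GM-CSF. Other annotated genes overlap 21.6% of its exon bases, and their reads cannot be told apart. Hyou1, whose product is a nucleotide exchange factor of BiP, was at 4702.5 and 4440.4 in M-CSF and 13163 and 13217 in GM-CSF. In all 3 genes the lowest GM-CSF library was more than 2 times the highest M-CSF library.

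Sdf2l1, which forms part of a BiP complex, had the highest fold of the chaperone group (log2 fold 1.93, SE 0.10, limma adjusted p = 5.29e-10). It was at 1558 (db/+) and 1176 (db/db) normalised reads in M-CSF and 5158 and 5177 in GM-CSF, so the M-CSF libraries differed from each other while those of GM-CSF did not differ beyond counting error. Its culture ratio was 3.31 (3.06 to 3.59) in db/+ and 4.40 (4.04 to 4.80) in db/db. The difference between these ratios was not tested, since it has no replicate. Manf, a secreted stress-induced factor held in the ER by BiP, was at 1699.7 and 1945 in M-CSF and 4248.5 and 4252 in GM-CSF, and Creld2, a secreted stress-induced protein, at 729 and 646 in M-CSF and 1583 and 1542 in GM-CSF. Of the J-domain cochaperones of BiP, Dnajc3 was at 3936 and 4269 in M-CSF and 8781 and 9054 in GM-CSF, and Dnajb11 at 2120.1 and 2417 in M-CSF and 4263 and 4724 in GM-CSF. Dnajb9, of the same family and a textbook target of XBP1 that returns IRE1 to its resting state, had the lowest fold of the group, at 751 and 748.5 in M-CSF and 1198 and 1199.5 in GM-CSF (log2 fold 0.67, SE 0.10, limma adjusted p = 5.96e-05).

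All 8 lectin chaperones, disulfide isomerases and oxidases rose as well, with log2 folds from 0.69 to 2.74. Ero1l (now Ero1a), the oxidase that renews disulfide bonds in the isomerases and is also known to respond to hypoxia, had the highest fold of all 33 genes. It was at 941 (db/+) and 1166 (db/db) normalised reads in M-CSF and 7060.3 and 7031 in GM-CSF, ratios of 7.51 (6.83 to 8.28) in db/+ and 6.03 (5.55 to 6.56) in db/db (log2 fold 2.74, SE 0.09, limma adjusted p = 5.46e-12). Its paralog Ero1lb was at 1064 and 1068 in M-CSF and 2636 and 2527 in GM-CSF, ratios of 2.48 and 2.37. Per kilobase of exon in GENCODE M21, Ero1l was at 213 and 264 normalised reads in M-CSF and 1598 and 1592 in GM-CSF, and Ero1lb at 164 and 164 and at 406 and 389. The levels of the paralogs per length thus lay closer together in M-CSF than in GM-CSF.

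Among the isomerases, Pdia4 was at 3449.8 (db/+) and 3925 (db/db) normalised reads in M-CSF and 16107 and 16256 in GM-CSF (log2 fold 2.14, SE 0.09, limma adjusted p = 3.10e-11), ratios of 4.67 (4.43 to 4.92) and 4.14 (3.95 to 4.34). Pdia6 was at 5356 and 5669 in M-CSF and 16126 and 16022 in GM-CSF, and P4hb, the classical protein disulfide isomerase and a subunit of collagen prolyl hydroxylase, at 14123 and 15960.4 in M-CSF and 34298 and 33541 in GM-CSF. Pdia3, the isomerase that works with calnexin and calreticulin and sits in the peptide-loading complex of MHC class I, was at 13630.1 and 14608 in M-CSF and 25721 and 26278.5 in GM-CSF. The ratios of Pdia6 were 3.01 (db/+) and 2.83 (db/db) and those of P4hb 2.43 and 2.10. The folds of the isomerases thus ran from 1.89 (db/+) and 1.80 (db/db) in Pdia3 to those of Pdia4. The lectin chaperones bind glycoproteins during folding. Calr, the soluble calreticulin, was at 22911 and 21051 in M-CSF and 66683 and 66795 in GM-CSF (log2 fold 1.60, SE 0.11, limma adjusted p = 9.04e-09). Canx, its membrane-bound relative calnexin, was at 17749.5 and 17886 in M-CSF and 28942 and 28613 in GM-CSF (log2 fold 0.69, SE 0.10, limma adjusted p = 2.03e-05). Per kilobase of exon Calr ranked the highest of the 33 genes in each of the 4 libraries, at 10491 and 9639 in M-CSF and 30533 and 30584 in GM-CSF. Hspa5 (6381 and 6401 in M-CSF, 16213 and 16279 in GM-CSF) and Hsp90b1 (6458 and 6782, 15971 and 15631) followed, close to each other, and Derl3 was the lowest in each library, at 13.9 to 43.3.

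**Figure D3:**
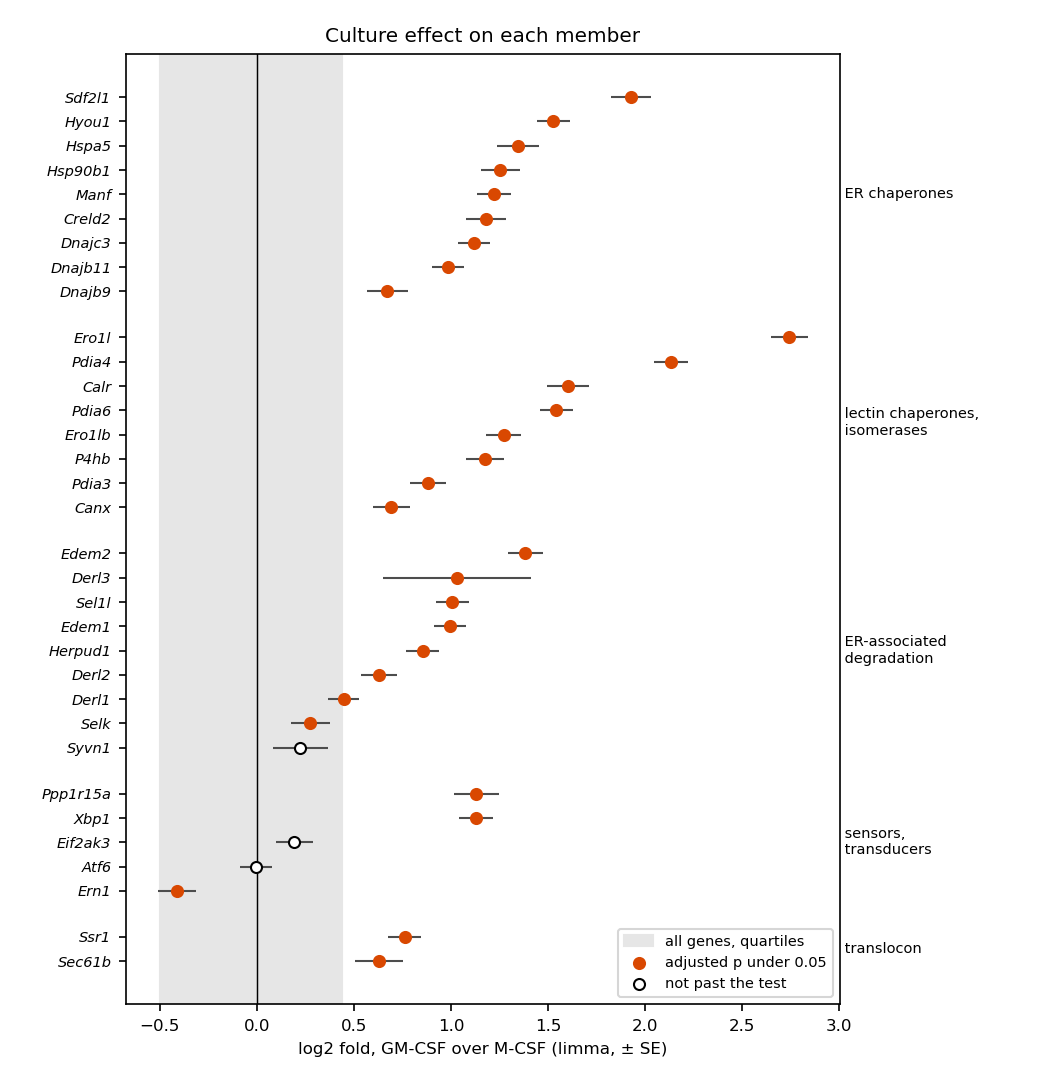
Log2 fold of GM-CSF over M-CSF for each of the 33 genes from the limma model, with bars of 1 SE, grouped by role; the grey band spans the quartiles of all 13642 genes (-0.50 to 0.44). Filled points passed at an adjusted p of 0.05. Folds run from -0.41 in Ern1 to 2.74 in Ero1l, and the open points are Syvn1, Eif2ak3 and Atf6.

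Of the 9 genes of ER-associated degradation, 8 rose in GM-CSF and Syvn1 did not pass the test. Edem2, which trims mannose from misfolded glycoproteins to mark them for disposal, was at 1456 (db/+) and 1215 (db/db) normalised reads in M-CSF and 3542 and 3415 in GM-CSF (log2 fold 1.38, SE 0.09, limma adjusted p = 7.14e-09). Edem1, of the same family, was at 5639 and 5813 in M-CSF and 11498 and 11347.5 in GM-CSF. Sel1l, the scaffold of the membrane ubiquitin ligase complex, was at 7156.5 and 7351.5 in M-CSF and 14568 and 14592 in GM-CSF, while Syvn1, the gene of the ligase HRD1 itself, was at 402 and 324 in M-CSF and 459 and 388 in GM-CSF. The Syvn1 libraries of the cultures overlapped, with ratios of 1.14 (0.932 to 1.38) in db/+ and 1.2 (0.968 to 1.47) in db/db (limma adjusted p = 0.197). Ratios of Edem1 were 2.04 (db/+) and 1.95 (db/db), and those of Sel1l 2.04 and 1.98, so the scaffold rose where the ligase did not pass. Herpud1, which recruits substrates to that complex, was at 1975.5 and 2031 in M-CSF and 3618 and 3635 in GM-CSF.

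The derlins are membrane proteins of the same channel, and all 3 passed the test. Derl1 was at 4079 and 4152 in M-CSF and 5640.4 and 5578 in GM-CSF and Derl2 at 1391 and 1541 in M-CSF and 2316 and 2217 in GM-CSF. With total-read scaling (limma adjusted p = 0.266) or without a variance trend (limma adjusted p = 0.0506) Derl1 no longer passed. Derl3, a stress-induced form of secretory cells, had few reads, at 20.9 and 18.3 in M-CSF and 57.2 and 35.5 in GM-CSF, from 22, 21, 51 and 33 reads. Its call (log2 fold 1.03, SE 0.38, limma adjusted p = 0.0325) was lost without any 1 of the 4 libraries, with adjusted p-values from 0.0735 to 0.310, and also with total-read scaling (0.112) and by DESeq2 (0.347). Selk (now Selenok), a selenoprotein that binds the derlins, was at 1043 and 960.2 in M-CSF and 1245 and 1180.2 in GM-CSF (log2 fold 0.27, SE 0.10, limma adjusted p = 0.0287). It was no longer called without M-CSF db/db or without either GM-CSF library (limma adjusted p from 0.0760 to 0.244), without a variance trend (0.126), by edgeR (adjusted p = 0.0611) or by DESeq2 (adjusted p = 0.334). Its log2 fold was -0.065 with total-read scaling.

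None of the 3 sensors that start the response passed the limma test for a rise in GM-CSF. Atf6 was at 5851 (db/+) and 5629 (db/db) normalised reads in M-CSF and 5755 and 5687 in GM-CSF, the narrowest spread of the 33 genes, with ratios of 0.984 (0.933 to 1.04) in db/+ and 1.01 (0.959 to 1.06) in db/db. With total-read scaling it fell with the median gene (log2 fold -0.35, limma adjusted p = 0.00255). Eif2ak3, the gene of PERK, was at 1324 and 1250.4 in M-CSF and 1551 and 1395 in GM-CSF (log2 fold 0.19, SE 0.09, limma adjusted p = 0.0965), and both GM-CSF libraries were above both of M-CSF. Its ratios were 1.17 (1.05 to 1.30) in db/+ and 1.12 (1.0005 to 1.24) in db/db, with counting intervals above 1. Ern1, the gene of IRE1-alpha, was the only member that fell (log2 fold -0.41, SE 0.10, limma adjusted p = 0.00241), at 1921 and 1646 in M-CSF and 1323.5 and 1351 in GM-CSF. Its ratio was 0.689 (0.621 to 0.763) in db/+ and 0.821 (0.741 to 0.910) in db/db. Without GM-CSF db/+ or GM-CSF db/db the Ern1 call was lost (limma adjusted p = 0.0822 and 0.0673), as it was without a variance trend (0.0853).

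The transducers downstream of the sensors rose. Xbp1, whose mRNA IRE1 splices into an active transcription factor, was at 2262 (db/+) and 2448.5 (db/db) normalised reads in M-CSF and 5285 and 5023 in GM-CSF (log2 fold 1.13, SE 0.09, limma adjusted p = 3.93e-08). Ppp1r15a, which encodes GADD34, the phosphatase subunit that ends the translational block by PERK, was at 474 and 553 in M-CSF and 1146 and 1109 in GM-CSF (log2 fold 1.13, SE 0.12, limma adjusted p = 1.01e-06). Ratios were 2.34 and 2.05 for Xbp1 and 2.42 and 2.00 for Ppp1r15a. At the translocon, Sec61b, the small subunit of the channel, was at 451 and 442 in M-CSF and 709 and 679.9 in GM-CSF, and Ssr1, a subunit of the translocon-associated protein complex, at 4788 and 5779 in M-CSF and 8614 and 9232.5 in GM-CSF. Both rose (limma adjusted p = 5.18e-04 and 2.51e-06), and Sec61b missed the threshold with total-read scaling (limma adjusted p = 0.0543).

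By role, the median limma log2 fold was 1.41 in the lectin chaperones, isomerases and oxidases, 1.22 in the ER chaperones, 0.85 in degradation, 0.70 in the translocon and 0.19 in the sensors and transducers. Differences between roles were not tested. Genes with an ERSE or ERSE-II in the promoter had a median log2 fold of 1.15 (12 genes, 0.22 to 1.60) and those with neither 1.0 (17 genes, -0.41 to 2.74). The highest folds, those of Ero1l, Pdia4 and Sdf2l1, were in genes with no exact element in the window, and Syvn1, which did not pass, has one 44 to 26 bases before its start.

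Other genes of the pathway were taken from 6 lists of 165 genes, of which 158 reached the level minimum. In the limma culture test 90 of the 158 rose in GM-CSF and 21 fell, with a median log2 fold of 0.36, against 29.8% and 27.3% of all genes and 0.02. Among other sensors and transducers 13 of 21 rose and 1 fell. Atf4, the transcription factor translated when PERK is active, was at 2967 and 3491.5 in M-CSF and 8405 and 8447 in GM-CSF (log2 fold 1.39, SE 0.09, limma adjusted p = 4.34e-09). Atf3, a stress-induced factor downstream of it, was at 4759.6 and 4543 in M-CSF and 13347 and 13689.5 in GM-CSF, and Trib3, a pseudokinase target of ATF4, at 40.9 and 129.8 in M-CSF and 539.5 and 493 in GM-CSF. Wfs1, an ER membrane protein mutated in a form of diabetes, was at 114 and 91.5 in M-CSF and 379 and 442 in GM-CSF. All 4 genes had both GM-CSF libraries above both of M-CSF, and Trib3 was also higher in M-CSF db/db than in M-CSF db/+.

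Of the other translocon and signal peptidase genes 25 of 32 rose and 2 fell (median log2 fold 0.55). Krtcap2 and Stt3b, subunits of the oligosaccharyltransferase that adds glycans, were at 732 and 774 in M-CSF and 1763 and 1983 in GM-CSF and at 4565.5 and 4774 in M-CSF and 10419 and 10334 in GM-CSF, and Sec11c of the signal peptidase at 1154 and 1227 in M-CSF and 2478 and 2517 in GM-CSF. Of the other degradation genes 9 of 30 rose and 4 fell (median 0.09), so that list lay near the background. Its only gene at least 2-fold apart in both genotypes was Sel1l3, at 274 and 379.9 in M-CSF and 85.2 and 76.4 in GM-CSF. Of 24 genes of ER export 14 rose and 2 fell (median 0.36), and Kdelr3, a receptor that returns chaperones from the Golgi, fell, at 205 and 418 in M-CSF and 81.9 and 61.3 in GM-CSF.

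Other folding catalysts rose in 22 of 35 and fell in 7 (median 0.44), and calcium handling genes rose in 7 of 16 and fell in 5 (median 0.02). Atp2a3, a calcium pump of the ER, was at 1349 and 1141.5 in M-CSF and 5244.5 and 5364 in GM-CSF, and Tmem38b, a potassium channel that balances calcium release, at 586 and 518 in M-CSF and 1560.1 and 1417 in GM-CSF. The folding catalysts farthest apart went the other way. Fkbp10, a prolyl isomerase of collagen folding, was at 602 and 1498 in M-CSF and 0 and 2.2 in GM-CSF, at least 89.5-fold lower in GM-CSF in db/+, against a floor of 3 read pairs in that GM-CSF library. The calcium-binding proteins Rcn3 and Rcn1 were at 391 and 958 in M-CSF and 16.8 and 29.1 in GM-CSF and at 554 and 1357.5 in M-CSF and 92.0 and 74.2 in GM-CSF. Fkbp9 was at 786 and 1503 in M-CSF and 285 and 317 in GM-CSF, Fkbp7 at 116 and 213.5 in M-CSF and 43.8 and 51.6 in GM-CSF, and Uggt2, a relative of the glycoprotein folding sensor, at 199 and 447 in M-CSF and 67.3 and 79.6 in GM-CSF. These 6 genes were also higher in M-CSF db/db than in M-CSF db/+, as were the stromal markers, at summed levels of 113582 and 40395 without Fn1. The part of stromal cells in these values was not tested.

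Markers of other cells also differed between the cultures. Of 13 neutrophil markers 11 fell and 1 rose in GM-CSF. Their summed level was 17972 and 18625 in M-CSF and 23654 and 25175 in GM-CSF, where the collagenase Mmp8 (1283 and 1272 in M-CSF and 22757 and 24135.5 in GM-CSF) made up most of the sum and 3 were at 0 in each GM-CSF library. Elane was at 287 and 252 in M-CSF and 2.3 and 2.2 in GM-CSF and Mpo at 1448 and 1373 in M-CSF and 1.1 and 0 in GM-CSF. Plasma cells are rich in this pathway, so their markers bear on it: Igj, the immunoglobulin joining chain, was at 24.7 and 161 in M-CSF and 0 and 1.1 in GM-CSF. Of 16 plasma and B cell markers 10 reached the minimum, 2 of them rose (Sdc1 and Irf4, which myeloid cells also express) and 6 fell. Their sums were 4440 and 4688 (M-CSF) and 15104 and 14988 (GM-CSF), with Sdc1 at 1204 and 1569 in M-CSF and 11258 and 11353 in GM-CSF and with 1, 0, 5 and 6 markers at 0. Mast cell and basophil markers summed to 322 and 332 and to 2638 and 2585, nearly all Kit in GM-CSF (106 and 106 in M-CSF and 2614 and 2540.0 in GM-CSF), with Cpa3 at 39.9 and 46.2 in M-CSF and 3.4 and 7.5 in GM-CSF.

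Of 14 macrophage markers 10 fell and 3 rose in GM-CSF, with sums of 926773 and 881120.1 in M-CSF and 777511 and 777783 in GM-CSF and none at 0. Of 16 GM-CSF culture and dendritic markers 12 rose and 2 fell, one of which, Flt3, was at 0 in both GM-CSF libraries. Of 15 cell cycle genes 2 rose and 4 fell. Most single markers of stromal cells, neutrophils and B cells were thus lower in GM-CSF, while the summed neutrophil, plasma cell and mast cell lists were higher there, through Mmp8, Sdc1 with Irf4, and Kit. The part of any of these cell types in the culture difference was not tested.

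The second comparison asked how cells of diabetic mice differed from control cells in the same culture. In M-CSF the ratios between genotypes were small: the median log2 difference (db/db minus db/+) was 0.03, beside 0.02 over all genes. Of the 33, 20 were higher by any amount in db/db (54.0% of all genes). None was at least 2-fold apart (5.83% of all genes kept) or at least 1.5-fold apart (12.2%). Ratios ran from 0.755 in Sdf2l1 to 1.24 in Ero1l, while the summed stromal markers were 2.84 times higher in db/db. The summed level of the 33 genes differed by 2.35%. Counting intervals lay above 1 for 12 genes, below 1 for 6 and held 1 for 15. These intervals do not include variation between cultures or animals, which 1 library per group does not show. How many of all genes had such intervals was not counted. Between these libraries the squared deviation was 10.1 times that of counting read pairs for the 33 genes. For genes with 200 to 1000 reads, taken around their median, it was 6.46 times. These figures cannot be compared, since that of the 33 genes was not centred. Most of the 33 also had more than 1000 reads, and where libraries vary beyond counting the multiple grows with reads. Both figures were well above counting error. An interval that leaves out 1 therefore does not by itself mark a genotype difference.

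The oxidase and isomerases that lay above 1 in M-CSF were Ero1l at 1.24 (1.10 to 1.40), Pdia4 at 1.14 (1.07 to 1.21), P4hb at 1.13 (1.10 to 1.17), Pdia3 at 1.07 (1.04 to 1.11) and Pdia6 at 1.06 (1.01 to 1.11). Ssr1 was at 1.21 (1.15 to 1.27), and the chaperone genes Manf and Dnajb11 at 1.14 (1.05 to 1.25) and 1.14 (1.05 to 1.24). Dnajc3, Hsp90b1, Xbp1 and Derl2 completed those above 1, with ratios from 1.05 to 1.11. Below 1 were Sdf2l1 at 0.755 (0.681 to 0.837), Syvn1 at 0.806 (0.657 to 0.983), Edem2 at 0.834 (0.751 to 0.925), Ern1 at 0.857 (0.783 to 0.937), Calr at 0.919 (0.896 to 0.942) and Hyou1 at 0.944 (0.893 to 0.998). The group therefore did not move one way, and BiP itself was at 1.003 (0.979 to 1.03). Stromal markers moved with the same pair of libraries, and their part in these small ratios was not tested.

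In GM-CSF the ratios were closer to 1. For genes with 200 to 1000 reads this pair of libraries agreed almost within sampling noise of read pairs. For the 33 genes the squared deviation, not centred, was 1.60 times that of counting read pairs, against 10.1 times in M-CSF. Most of the 33 had more than 1000 reads, so their figure cannot be set against that of genes with 200 to 1000. The median log2 fold was -0.02 (0.01 over all genes), and 14 of 33 were higher by any amount in db/db (52.4% of all genes). The median absolute log2 ratio was 0.03 against 0.12 in M-CSF, and the summed levels differed by -0.222%. None of the 33 was at least 2-fold apart (1.06% of all genes), and 1, Derl3, was at least 1.5-fold lower (2.41%), at 0.621 (0.296 to 1.14) from 51 and 33 reads. The counting interval held 1 for 30 genes, a count that was not made over all genes. The exceptions were Dnajb11 at 1.11 (1.04 to 1.18), Ssr1 at 1.07 (1.03 to 1.12) and Hsp90b1 at 0.979 (0.960 to 0.998). Dnajb11 and Ssr1 were higher in db/db in M-CSF too, in a pair that shares no library with this one. Whether the cultures of a genotype shared marrow is not known here, so the pairs may not be independent. The lowest ratio after Derl3 was that of Syvn1, at 0.847 (0.689 to 1.04), which was also below 1 in M-CSF (0.806).

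In the limma model 0 of the 33 genes passed for genotype, of 1 among all 13642 genes (0.00733%). The smallest unadjusted p of the 33 was 0.0478 in Ssr1 (log2 fold 0.19, SE 0.09, limma adjusted p = 0.9996, higher in db/db in both cultures), the only 1 of 33 under 0.05 (4.42% of all genes). On recovered reads the edgeR quasi-likelihood test called 0 of the 33 and 103 of all genes (0.755%), of which 101 were higher in db/db, and DESeq2 called 0 of the 33 and 2 of all genes (0.0147%). With 1 residual degree of freedom the model cannot separate a genotype effect that differs between the cultures from error.

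**Figure D4:**
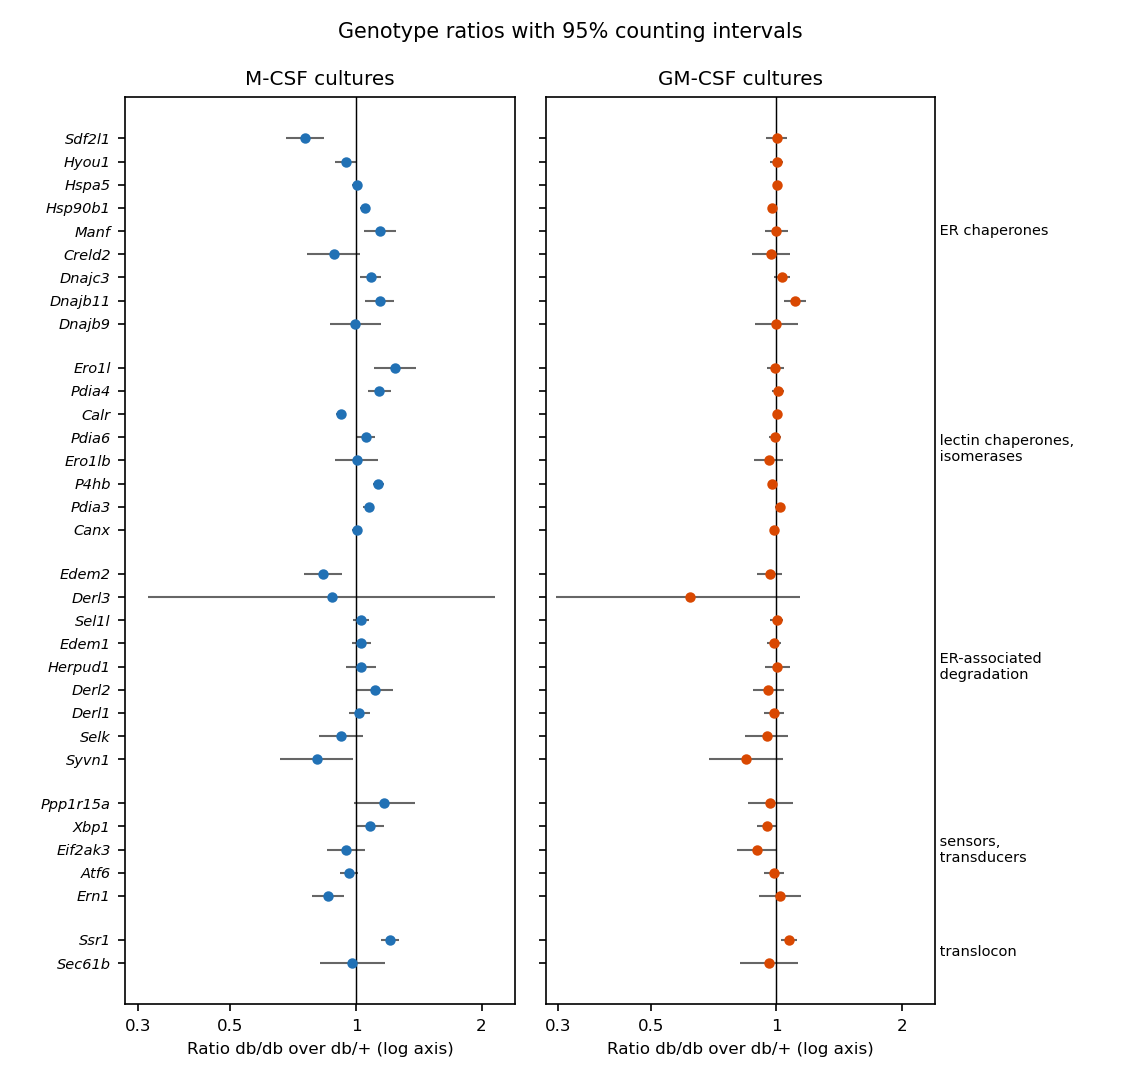
Ratio of db/db over db/+ (log axis) for each of the 33 genes with 95% exact counting intervals on read pairs, in M-CSF (left, blue) and GM-CSF (right, orange). Ratios spread from 0.755 to 1.24 in M-CSF. In GM-CSF, leaving out Derl3 with its wide interval, they run from 0.847 in Syvn1 to 1.11 in Dnajb11.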

How the data were processed

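The deposited files give, for 22700 gene symbols per library, a signal that the authors made by dividing read counts by a size factor for each library (edgeR's TMM by the name of the files) and rounding to 1 decimal. The submitters' processing notes name TopHat 1.2.0, edgeR and the builds mm8 and mm9 without a role, and the counter, annotation and strand setting are not stated. Without strand, reads of overlapping genes cannot be told apart: by GENCODE M21 other genes overlap 21.6% of the exon bases of Hsp90b1, 10.0% of Eif2ak3, 7.31% of Manf and 5.37% of Derl2.

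Whole reads were recovered by dividing each column by its step of 1 read (0.871 to 1.12). Between 99.4% and 99.9% of values came out whole with a tolerance of 0.1. Whether mates were counted singly is not stated, so intervals used read pairs, the wider choice (12801695 to 14311347 per library). Ratios have exact conditional binomial 95% intervals and shares Wilson intervals, covering counting error only.

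Genes reaching 20 in at least 1 library were kept (13642). Folds were taken on log2(value + 5), which understates the change of low genes. The tests were limma 3.58.1 (R 4.3.3), additive in culture and genotype, with an eBayes variance trend and 1 residual and 12.87 prior degrees of freedom, two-sided, Benjamini-Hochberg threshold 0.05. The culture test was checked on simulated data with the same relative spread for all genes, no shift of library composition and far fewer changed genes than were called here. That check does not show the error rate of the test in these data. Alternatives were pseudocounts of 1 and 20, level minimums of 0 and 200, total-read and median-of-ratios scaling, no variance trend, no second factor, each library left out, edgeR 4.0.16 and DESeq2 1.42.0. All 33 members are named. Of the other lists the text names up to 4 genes each, past the test and at least 2-fold apart in both genotypes, by the size of the fold, and the first 4 markers that reached the minimum. Fn1, Lepr, Mmp8 and Flt3 were named for their values or as checks. Members and lists were chosen with earlier results of these data known. Among symbols, 38 were repeated and 25 looked like dates, and none of these is named. No per-sample columns were left unused (0).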

Additional observations from a re-analysis of the deposited data

Results flagged for a closer look

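Hsp90b1, the gene of GRP94, had ratios of db/db over db/+ on opposite sides of 1 whose counting intervals each left out 1: 1.05 (1.02 to 1.08) in M-CSF and 0.979 (0.960 to 0.998) in GM-CSF. It was the only 1 of the 33 genes with this pattern. The difference between the cultures was not tested, and both ratios are within 6% of 1. Other annotated genes overlap 21.6% of its exon bases.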

How the results depend on the processing

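Scaling to total reads lowered the number of genes at least 2-fold higher in GM-CSF from 20 to 7 in db/+ (8.41% of all genes) and from 15 to 7 in db/db (7.95%), all 7 being among the 20 and the 15, since that scaling shifts every gene. Other alternatives gave 17 to 20 and 15 or 16. With no level minimum limma called 0 genes for culture among the 33 and 0 among all 22700 (smallest adjusted p = 0.0628), although 29 of the 33 and 8129 of all had an unadjusted p under 0.05, and edgeR on the filtered genes called 29. Under every other alternative that kept all libraries 27 to 30 genes passed, of the 33 or, at a level minimum of 200, of the 32 that reached it. edgeR called 7746 genes and DESeq2 5375, against 7787 by limma. Selk had a log2 fold of -0.065 with total-read scaling (limma adjusted p = 0.578). Genotype calls among the 33 were 0 with the other pseudocounts, level minimums, scalings and tools and without a variance trend. Leaving out a library or the culture factor puts the culture difference into the genotype fit or its error, so the 0 calls there say nothing about stability. Without the 10 most abundant genes in the total, the share of reads was 0.805% and 0.828% in M-CSF and 1.59% and 1.57% in GM-CSF. The genotype term of the limma model pairs the cultures by genotype. Pairing by animal was not possible, since each group has 1 library and shared marrow is not known here. Depth limits Derl3 most, at 21 to 51 reads.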

Other observations

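Promoters with an exact ERSE or ERSE-II were found in 37 genes outside the 33. Of these 27 had a row in the files and 17 reached the level minimum. In the limma culture test 4 of the 17 (23.5%) rose in GM-CSF and 4 fell, beside 29.8% and 27.3% of all genes, with a median log2 fold of 0.40. Those that rose were Krtcap2, an oligosaccharyltransferase subunit, at 732 and 774 in M-CSF and 1763 and 1983 in GM-CSF, the calcium-binding Nucb1 at 4881 and 4468 in M-CSF and 7846.5 and 7798.5 in GM-CSF, Alg12, a mannosyltransferase of glycan assembly, at 352 and 319.8 in M-CSF and 439.7 and 457 in GM-CSF, and Rcl1 at 299.6 and 333 in M-CSF and 409 and 436 in GM-CSF. Those that fell were 1110067D22Rik, at 188 and 402 in M-CSF and 24.7 and 30.1 in GM-CSF, Pan2, a deadenylase subunit, at 754 and 719 in M-CSF and 576.5 and 611 in GM-CSF, and Spats2l and Zfp57, each under 30 in all 4 libraries. These 8 genes are named because they make up the whole counts, and were chosen after their values were seen. Hnrnpa3, an RNA-binding protein, was among the 9 that did not pass, at 2855 and 2993 in M-CSF and 2722 and 2655 in GM-CSF.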
